A study of Homo sapiens with 6 samples.

Results

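The genes described are 10 subunits of the COMPASS family, the multiprotein complexes that methylate histone H3 on lysine 4. They were taken by symbol (WDR5, RBBP5, ASH2L, DPY30, HCFC1, MEN1, PSIP1, KDM6A, PAXIP1 and PAGR1) from the 60669 genes of the count files, and each symbol matched 1 gene. The study used 293T, a human cell line derived from embryonic kidney, and had 3 groups of 2 libraries. Control cells were labelled WT, a second group had MLL2 knocked out by CRISPR/Cas9 editing, and in the remaining group shRNA against PRMT1 had knocked that gene down. No group had any further treatment. The labels do not say which gene MLL2 stands for (the name has been used for KMT2B and for KMT2D), whether the knockout libraries came from 1 clone, or which hairpin the control and knockout cells carried, although the alignment names in the file headers hold shNT for both of these groups and shPR for the knockdown. The series title places PRMT1, an arginine methyltransferase, upstream of the stability of MLL2. The comparisons ask how the messages of COMPASS subunits, whether or not they share a complex with MLL2, differ from control in each labelled group.

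Every COMPASS complex holds 1 catalytic SET-domain subunit of the KMT2 family on a common core of 4 proteins. WDR5 is a WD-repeat protein that holds the catalytic subunit, RBBP5 and ASH2L together stimulate its activity, and DPY30 is a small protein that docks on ASH2L. The other subunits set the complexes apart. HCFC1, a large transcriptional coregulator that the glycosyltransferase OGT cleaves, is found in the SETD1A, SETD1B, KMT2A and KMT2B complexes. Menin (MEN1), a tumour suppressor, and PSIP1 (LEDGF), a reader of methylated lysine 36 of histone H3, bind KMT2A and KMT2B. KDM6A (UTX), which demethylates lysine 27 of histone H3, PAXIP1 (PTIP), a BRCT-domain protein, and its small partner PAGR1 (PA1) belong to the KMT2C and KMT2D complexes.

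Library totals lay between 20061471 and 22351532 counts, and all 10 subunit genes were among the 17575 that passed the count filter. A subunit gene had between 439 counts (ASH2L, a knockdown library) and 5465 counts (PSIP1, a control library). PRMT1 was at 306 and 319 CPM in the control libraries, 406 and 425 CPM in the knockout libraries and 38.2 and 34.9 CPM in the knockdown libraries. CPM are counts scaled to a common library size, the library's counts in tested genes times its TMM factor. By the test described below, PRMT1 was higher in the knockout (0.41 ± 0.08, adjusted p = 8.9e-04). It was lower in the knockdown (-3.10 ± 0.09, adjusted p = 5.5e-16). Neither gene that the name MLL2 can stand for was lower in the knockout: KMT2B was at 6.74 and 7.53 CPM in control and 7.12 and 7.36 CPM in the knockout libraries (0.021 ± 0.25), and KMT2D was at 22.5 and 17.0 CPM and at 20.8 and 24.2 CPM (0.19 ± 0.26). The kind of edit is not given in the sources used here, so these whole-gene counts do not check the knockout label. Of the genes looked up for the cell line, VIM, NEFL, NEFM, LIN28B and IGF2BP1 were expressed, while PAX2, at 1 to 11 counts a library, was nearly absent. Together these 6 summed to 1191 to 1199 CPM in control, 891 to 904 CPM in the knockout and 1226 to 1276 CPM in the knockdown libraries. The sums hide changes of single genes. In the knockdown the log2 fold changes were -2.67 (NEFL), -1.59 (NEFM), 1.57 (IGF2BP1), 0.55 (VIM), 0.003 (LIN28B) and -1.7 (PAX2). In the knockout they were -1.18 (NEFL), -2.02 (NEFM), 0.068 (IGF2BP1), 0.043 (VIM), -0.57 (LIN28B) and -0.73 (PAX2). The part of these genes in the results was not tested. The 10 marker genes of blood, endothelium, liver and fibroblasts summed to 2.06 to 4.19 CPM in a library, with CD3E and COL1A2 at 0 counts in all 6. The 2 knockdown libraries differed more from each other than the libraries of the other groups, with a mean chi-square per gene of 16.9 against 6.41 for control and 4.86 for the knockout. Changes below are log2 fold changes ± SE over n = 2 libraries a group, with adjusted p from edgeR's quasi-likelihood test (Benjamini-Hochberg over all genes tested), and a gene is called when that p is below 0.05. The libraries are biological replicates per the series' design text. The p-values set each change against a spread between replicates that is shared over the 3 groups, although the knockdown pair was the noisiest. When only the 2 groups of a comparison were fitted, 5386 genes were called in the knockout and 8131 in the knockdown, against 3941 and 8338. Whether the spread covers differences between knockout clones is not known, since the number of clones is not stated.

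Promoters are shown for the 4 members that were called in the knockdown and had an entry in the promoter table, because 2 of these genes fell and 2 rose. The sequences are RefSeq's, on GRCh38.p14, from 250 bases before to 50 bases after an annotated start, and 6 of the 10 members had an entry. They are written 5′ to 3′ on the gene's strand, with capitals for any match, on either strand, to the GC box GGGCGG, the CCAAT box CCAAT, the ETS core CCGGAAG, the E-box CACGTG or the NRF1 motif. PAGR1 (chr16:29815902-29816201, plus strand) and PSIP1 (chr9:15510921-15511220, minus strand) fell, and RBBP5 (chr1:205121929-205122228, minus strand) and KDM6A (chrX:44872938-44873237, plus strand) rose.
PAGR1: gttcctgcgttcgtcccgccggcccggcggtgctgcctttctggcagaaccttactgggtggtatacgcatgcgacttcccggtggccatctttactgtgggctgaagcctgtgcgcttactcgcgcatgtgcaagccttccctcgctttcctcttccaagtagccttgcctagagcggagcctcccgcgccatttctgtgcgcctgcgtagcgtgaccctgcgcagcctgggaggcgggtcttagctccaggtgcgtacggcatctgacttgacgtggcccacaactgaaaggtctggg
PSIP1: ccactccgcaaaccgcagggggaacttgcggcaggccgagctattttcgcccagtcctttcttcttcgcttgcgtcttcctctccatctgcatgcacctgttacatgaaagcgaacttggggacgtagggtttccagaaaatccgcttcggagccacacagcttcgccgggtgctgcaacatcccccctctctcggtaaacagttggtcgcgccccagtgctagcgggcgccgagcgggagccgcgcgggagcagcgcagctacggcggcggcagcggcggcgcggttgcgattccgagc
RBBP5: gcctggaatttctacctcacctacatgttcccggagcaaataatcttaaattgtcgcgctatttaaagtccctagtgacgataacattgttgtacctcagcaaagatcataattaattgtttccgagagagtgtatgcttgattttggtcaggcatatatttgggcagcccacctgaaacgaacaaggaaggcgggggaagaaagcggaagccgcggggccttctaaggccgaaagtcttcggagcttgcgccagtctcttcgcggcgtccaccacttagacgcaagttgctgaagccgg
KDM6A: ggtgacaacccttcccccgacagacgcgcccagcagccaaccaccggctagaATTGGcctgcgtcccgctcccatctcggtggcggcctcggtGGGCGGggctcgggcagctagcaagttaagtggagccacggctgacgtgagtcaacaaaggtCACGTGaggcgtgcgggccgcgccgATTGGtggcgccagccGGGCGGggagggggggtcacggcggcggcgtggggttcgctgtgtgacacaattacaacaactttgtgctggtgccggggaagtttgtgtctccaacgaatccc
The windows of PAGR1, PSIP1 and RBBP5 held none of these letters, and that of KDM6A held 2 GC boxes, 2 CCAAT boxes and 1 E-box. Among all 35116 promoter windows of the table, 45% held the GC box, 34.6% the CCAAT box, 10.3% the ETS core, 7.26% the E-box and 5.78% the NRF1 motif. The window GC content was 62.3% for PAGR1, 64.0% for PSIP1, 49.3% for RBBP5 and 66.3% for KDM6A. Whether promoter base composition goes with the direction of change was not tested. These matches describe the letters of 1 start per gene, the one nearest its 5′ end in the count files, and say nothing of binding. The window of another annotated start of PSIP1 (chr9:15510309-15510608) held 2 GC boxes, with a GC content of 70.7%.

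In control cells the subunit genes were not expressed at equal levels. Per kb of exon, PSIP1 was highest at 39.1 ± 1.16 CPM per kb (SD, n = 2 here and below), followed by WDR5 at 27.5 ± 0.954. DPY30 (15.0 ± 0.136), PAGR1 (14.7 ± 0.307) and RBBP5 (13.6 ± 0.136) came next. KDM6A (8.32 ± 0.739) and MEN1 (8.22 ± 0.595) overlapped, the only neighbours in the control order whose libraries did. PAXIP1 stood at 6.55 ± 0.0618, ASH2L at 5.17 ± 0.336 and HCFC1 was lowest at 3.06 ± 0.460. Core subunits thus stood both near the top (WDR5) and near the bottom (ASH2L) of the range.

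Each level divides by all annotated exon bases of a gene, not by the length of the transcripts expressed, so the order depends on the annotation. For 2 members the level also depends on exon bases shared with other genes. DPY30 (chromosome 2, 31867809 to 32039805, minus strand, hg38) shares 1385 of its 2725 exon bases (50.8%) with MEMO1 on the same strand, and PAGR1 (chromosome 16, 29816152 to 29822489, plus strand) shares 1308 of 3874 (33.8%) with MVP and 2 unnamed genes. The featureCounts command in the headers does not ask for reads to be given to several overlapping genes, and the program then leaves such reads out. MEMO1 itself had 48 to 86 counts a library. Reads in the shared bases are missing from this count too, so it does not show how strongly MEMO1 was expressed. Per kb of unshared exon, the control level of DPY30 was 30.6 ± 0.277 CPM per kb, above WDR5, and that of PAGR1 was 22.2 ± 0.463. No other member shared exon bases with a gene on its own strand, and changes between groups do not depend on the length used.

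**Figure D1:**
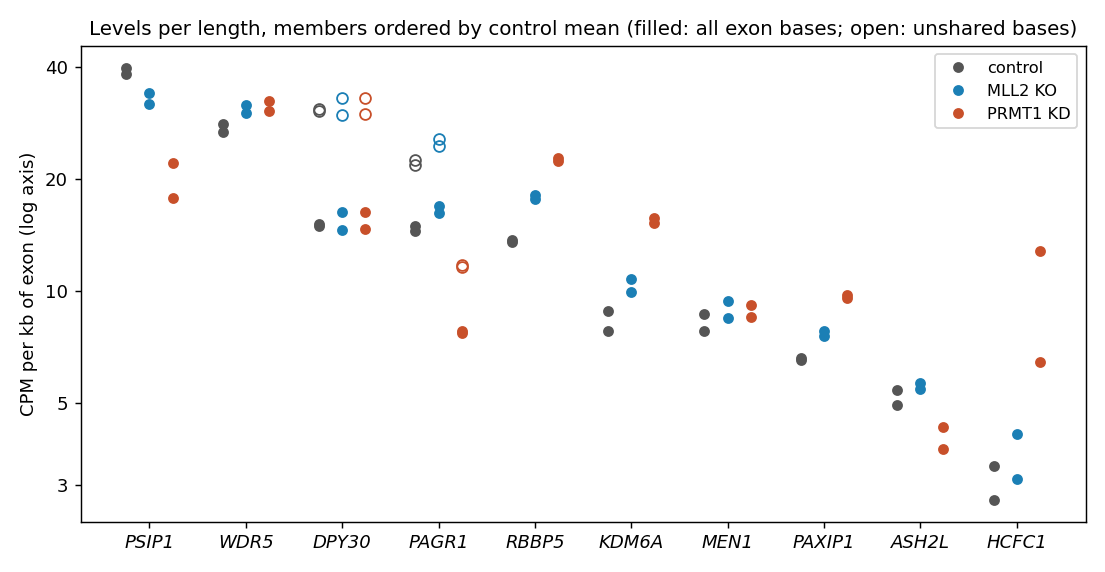
Levels of the 10 subunit genes in CPM per kb of exon on a log axis, in control (grey), MLL2 knockout (blue) and PRMT1 knockdown (red) libraries, 2 points a group. Filled points use all exon bases and open points, for DPY30 and PAGR1, the unshared bases; PSIP1 is highest in both control libraries and HCFC1 lowest.

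In the MLL2 knockout 2 of the 10 subunit genes were higher (RBBP5 and KDM6A), 0 were lower and 8 were not called. In this fit that is close to the share over all genes: 22.4% of the 17575 tested were called, 10.3% higher and 12.1% lower. A correction for exon length and GC content called 5 subunit genes higher and 1 lower. It called 2160 of 17350 genes higher and 2406 lower. Without that correction the median change of the subunit genes was 0.17, against -0.01 over all tested genes. In the PRMT1 knockdown 4 were higher (HCFC1, KDM6A, RBBP5 and PAXIP1), 3 lower (PSIP1, PAGR1 and ASH2L) and 3 not called (WDR5, DPY30 and MEN1), where 47.4% of all genes were called, 22.2% higher and 25.3% lower. The median change was 0.15, against -0.035 over all tested genes. Scaling by library totals alone moves the median of all genes in the knockdown from -0.035 to 0.082 and its calls from 3899 higher and 4439 lower to 4852 and 3669, and the subunit genes then split into 5 higher and 2 lower. With TMM scaling the knockdown calls ran in both directions among the core subunits and among those of KMT2C and KMT2D, while with library totals ASH2L, the core subunit called lower, was not called.

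**Figure D2:**
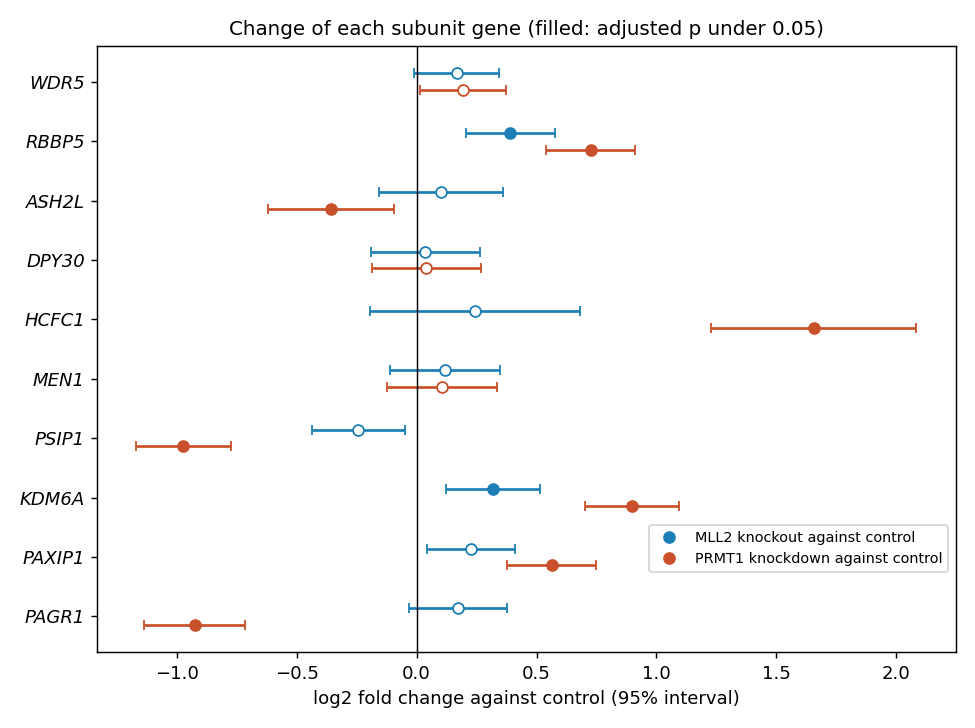
Log2 fold change against control of each subunit gene (points) with its 95% interval (bars), for the MLL2 knockout (blue) and the PRMT1 knockdown (red), both against the same 2 control libraries. Filled points have an adjusted p below 0.05: 2 in the knockout and 7 in the knockdown.

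Among the core subunits RBBP5 rose in both the knockout and the knockdown. RBBP5 lies on chromosome 1 (205086142 to 205122015, hg38). Its level was 59.5 and 60.4 CPM in the control libraries, 79.5 and 77.6 CPM in the knockout libraries and 98.2 and 99.98 CPM in the knockdown libraries. The libraries of a group lay close together and the 3 groups did not overlap. Its change was 0.39 ± 0.09 in the knockout (1.31-fold, adjusted p = 0.00313, or 0.0550 without MLL2 knockout replicate 1) and 0.73 ± 0.09 in the knockdown (1.65-fold, adjusted p = 9.3e-07).

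ASH2L, which binds RBBP5 directly, went the other way in the knockdown. It was at 30.6 and 27.9 CPM in the control libraries, 30.8 and 31.9 CPM in the knockout libraries and 21.2 and 24.4 CPM in the knockdown libraries. Both knockdown libraries were below all 4 others. The change was -0.36 ± 0.13 (adjusted p = 0.0243). This call was lost under 6 of 16 other settings, among them DESeq2 (adjusted p = 0.0696), library totals (0.141), no count filter (0.0628) and the compared groups alone (0.0644), and also without control replicate 1 (0.170) or PRMT1 knockdown replicate 1 (0.134). In the knockout ASH2L changed by 0.10 ± 0.13 (95% interval -0.16 to 0.36, not called).

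WDR5 and DPY30 were not called in the knockout or the knockdown. WDR5 was at 97.2 and 102 CPM in the control libraries, 109 and 115 CPM in the knockout libraries and 118 and 110.5 CPM in the knockdown libraries, with both of the latter groups above control. Its change was 0.17 ± 0.09 in the knockout (adjusted p = 0.175) and 0.19 ± 0.09 in the knockdown (adjusted p = 0.0682), and 8 of 16 other settings called the knockdown change. DPY30 was at 41.3 and 40.7 CPM in the control libraries, 44.3 and 39.8 CPM in the knockout libraries and 44.3 and 40.1 CPM in the knockdown libraries. The groups overlapped, and the 95% intervals ran from -0.19 to 0.26 for the knockout and from -0.19 to 0.27 for the knockdown, so changes of those sizes could not be told from none.

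HCFC1 (chromosome X, 153947557 to 153971818) had the largest change of the 10, and the least even one. It was at 24.7 and 30.5 CPM in the control libraries, 28.2 and 37.2 CPM in the knockout libraries and 58.1 and 115 CPM in the knockdown libraries. Both knockdown libraries were above the other 4, but they differed from each other by 0.99 on the log2 scale, more than the knockdown libraries of any other member. The change in the knockdown was 1.66 ± 0.21 (3.15-fold, adjusted p = 1.2e-06), or 1.08 without PRMT1 knockdown replicate 2 and 2.06 without PRMT1 knockdown replicate 1. In the knockout it was 0.24 ± 0.21 (95% interval -0.20 to 0.68, not called).

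HCFC1 is long (9011 exon bases) and rich in GC (61.5% in its longest GENCODE 29 transcript). Among well-expressed genes, 154 had over 8000 exon bases and GC over 60%. Their median log2 difference was 0.34 between knockdown replicate 2 and replicate 1 and 0.049 between knockdown and control. After a correction of the counts for exon length and GC content the change of HCFC1 was 1.67. The part of library composition in its size was not tested beyond that.

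Of the subunits of the KMT2A and KMT2B complexes, PSIP1 fell in the knockdown and MEN1 was not called. PSIP1 lies on chromosome 9 (15464066 to 15510995, hg38). Its level was 258 and 269 CPM in the control libraries, 229.8 and 215 CPM in the knockout libraries and 149 and 119.9 CPM in the knockdown libraries. The 3 groups did not overlap, with the knockout between control and knockdown. Its change was -0.97 ± 0.09 in the knockdown (1.96-fold lower, adjusted p = 4.5e-08). In the knockout it was -0.24 ± 0.09 with adjusted p = 0.0645, which 10 of 16 other settings brought below 0.05, among them the fit with the replicate number as a block (adjusted p = 0.0292) and the length and GC correction (0.00437).

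MEN1 lies on chromosome 11 (64803510 to 64811294, hg38). Its level was 38.4 and 42.5 CPM in the control libraries, 41.5 and 46.3 CPM in the knockout libraries and 41.9 and 45.2 CPM in the knockdown libraries. All 3 groups overlapped. The 95% interval of its change was -0.11 to 0.35 in the knockout and -0.12 to 0.34 in the knockdown.

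The KMT2C and KMT2D subunits split in the knockdown. KDM6A lies on chromosome X (44873177 to 45112779, hg38). Its level was 64.7 and 57.0 CPM in the control libraries, 78.9 and 72.8 CPM in the knockout libraries and 112 and 115 CPM in the knockdown libraries. Its groups did not overlap and rose in that order. The change was 0.32 ± 0.09 in the knockout (1.25-fold, adjusted p = 0.0186) and 0.90 ± 0.09 in the knockdown (1.86-fold, adjusted p = 1.2e-07). The knockout call of KDM6A was lost without MLL2 knockout replicate 1 (adjusted p = 0.220) and without control replicate 2 (adjusted p = 0.267).

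PAXIP1 lies on chromosome 7 (154943687 to 155003124, hg38). Its level was 63.0 and 63.8 CPM in the control libraries, 75.3 and 73.1 CPM in the knockout libraries and 92.8 and 94.5 CPM in the knockdown libraries. Again the 3 groups stood apart, and replicates were close. The change was 0.56 ± 0.09 in the knockdown (1.48-fold, adjusted p = 2.3e-05) and 0.23 ± 0.09 in the knockout (adjusted p = 0.0725, not called). The knockout change was called under 5 of 16 other settings, among them the length and GC correction (adjusted p = 0.0298) and the compared groups alone (0.0236).

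PAGR1, whose protein pairs with PAXIP1, fell in the knockdown. It was at 56.1 and 57.8 CPM in the control libraries, 65.6 and 62.8 CPM in the knockout libraries and 30.1 and 29.8 CPM in the knockdown libraries. The knockdown libraries nearly coincided and were below all others, while both knockout libraries were above control. The change was -0.93 ± 0.10 in the knockdown (1.90-fold lower, adjusted p = 2.2e-07), or -0.74 after the length and GC correction, and 0.17 ± 0.10 in the knockout (adjusted p = 0.222).

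**Figure D3:**
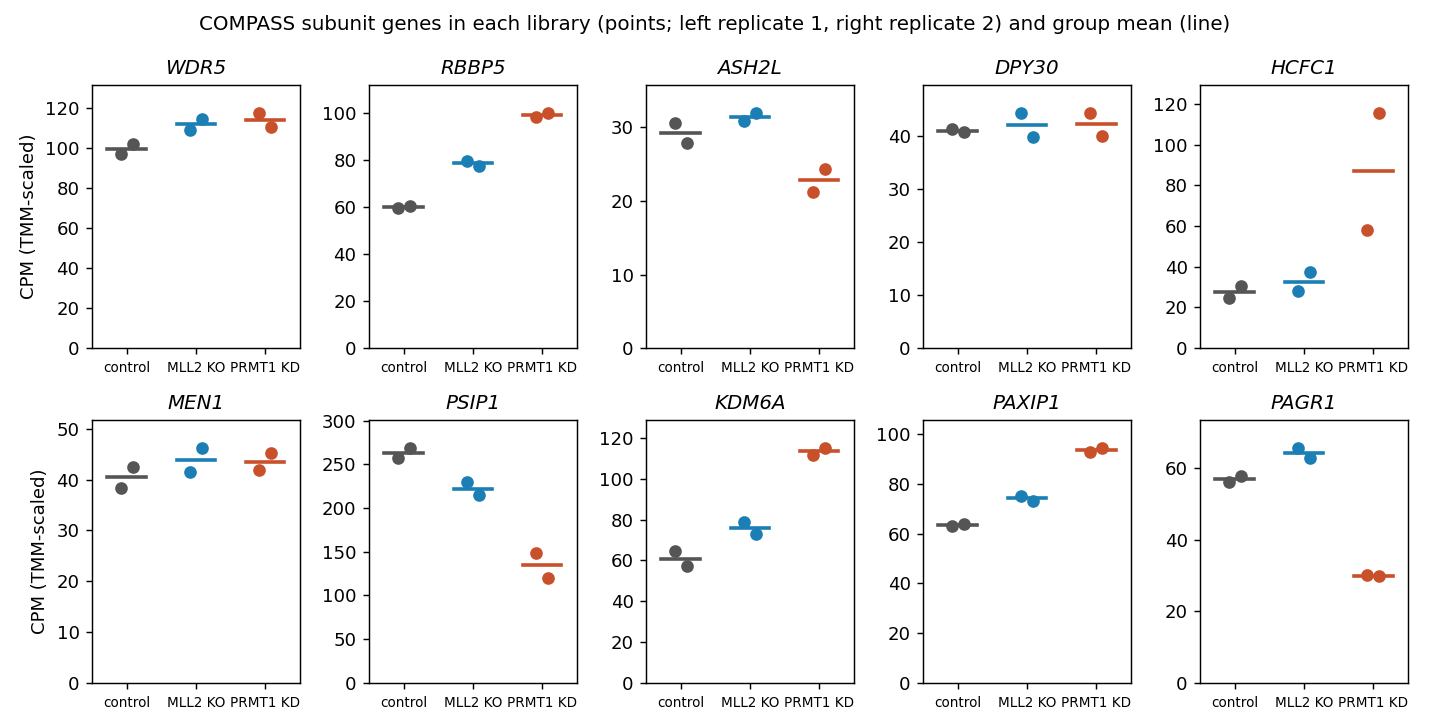
CPM of each subunit gene in every library (points, replicate 1 left and replicate 2 right) and the group mean (line), each panel from 0. PAGR1 and PSIP1 are lowest and RBBP5, KDM6A and PAXIP1 highest in the knockdown libraries, and the 2 HCFC1 points of the knockdown lie far apart.

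Since both comparisons share the control libraries, the knockdown was also set directly against the knockout. There 4 subunit genes were higher and 3 lower, where 40.7% of all genes were called, 19.4% higher and 21.4% lower. HCFC1 (1.41 ± 0.20, adjusted p = 1.1e-05), KDM6A (0.58 ± 0.09, adjusted p = 3.7e-05), PAXIP1 (0.34 ± 0.09, adjusted p = 0.00415) and RBBP5 (0.34 ± 0.09, adjusted p = 0.00398) were higher in the knockdown. PAGR1 (-1.10 ± 0.10, adjusted p = 3.4e-08), PSIP1 (-0.73 ± 0.09, adjusted p = 3.0e-06) and ASH2L (-0.46 ± 0.13, adjusted p = 0.00577) were lower. The call of PAXIP1 was lost after the length and GC correction (0.18, adjusted p = 0.0664) and, like that of RBBP5, without MLL2 knockout replicate 2 (adjusted p = 0.0754 and 0.0708). WDR5 (0.026 ± 0.085), DPY30 (0.003 ± 0.11) and MEN1 (-0.010 ± 0.11) were not called.

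Ratios of raw counts within a library do not depend on how libraries are scaled, but they are not corrected for exon length or GC content. They are given as values with no test for pairs of subunits known to touch or share a complex, a choice made with these changes known. PAGR1 had 0.891 and 0.905 counts per count of PAXIP1 in the control libraries, 0.871 and 0.860 in the knockout libraries and 0.325 and 0.315 in the knockdown libraries. The ratio was thus 2.81 times lower in the knockdown than in control, with replicates within 0.02 of each other in every group. PAGR1 and PAXIP1 differ in exon bases (3874 and 9683) and in GC content (61.0% and 46.4%). ASH2L per RBBP5 went from 0.514 and 0.462 in control over 0.388 and 0.412 in the knockout to 0.216 and 0.244 in the knockdown. PSIP1 per MEN1 was 6.72 and 6.33 in control, 5.54 and 4.65 in the knockout and 3.55 and 2.66 in the knockdown. WDR5 per RBBP5, not drawn in the figure, was 1.63 and 1.69 in control, 1.37 and 1.48 in the knockout and 1.20 and 1.105 in the knockdown. ASH2L per RBBP5, PSIP1 per MEN1, WDR5 per RBBP5 and PAGR1 per PAXIP1 were all ordered control, knockout, knockdown from high to low. Their groups did not overlap. DPY30 per ASH2L, at 1.35 and 1.46 in control and 1.44 and 1.25 in the knockout, was 2.09 and 1.64 in the knockdown.

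**Figure D4:**
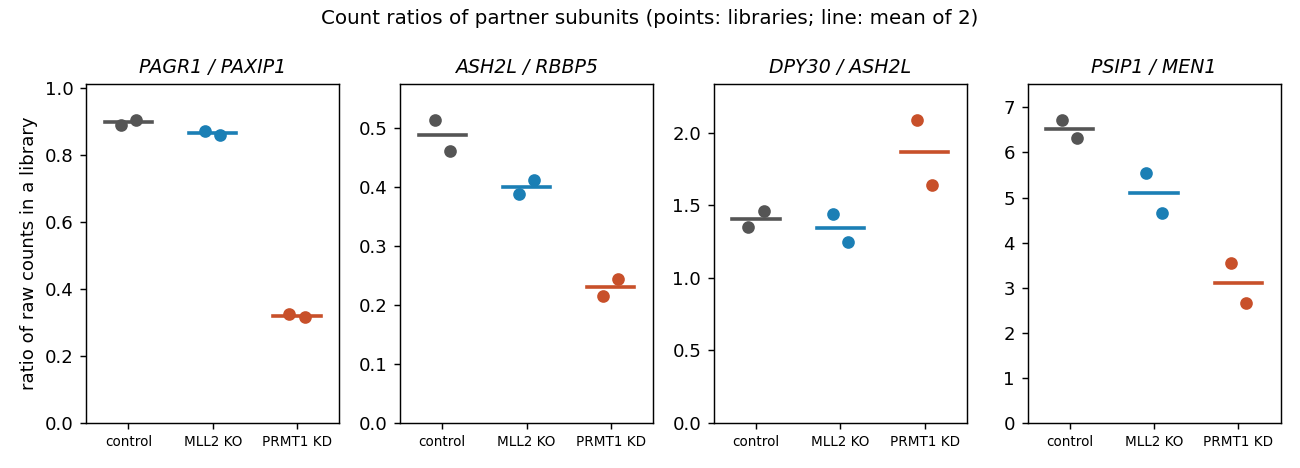
Ratios of raw counts of partner subunits in each library (points) with the group mean (line), axes from 0. PAGR1 per PAXIP1 is 0.891 and 0.905 in control and 0.325 and 0.315 in the knockdown.

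The other genes of the pathway were taken from lists written from knowledge of the complexes. All 6 catalytic subunits were higher in the knockdown and 0 of 6 were called in the knockout, where over all genes 22.2% were higher in the knockdown and 22.4% were called in the knockout. In the knockdown KMT2D changed by 1.76 ± 0.26, SETD1B by 1.56 ± 0.40, KMT2B by 1.49 ± 0.24, SETD1A by 1.46 ± 0.20, KMT2C by 1.36 ± 0.13 and KMT2A by 0.53 ± 0.15. Like HCFC1, they stood higher in knockdown replicate 2 than in replicate 1, by 0.49 (KMT2C) to 1.69 (SETD1B) on the log2 scale. Without PRMT1 knockdown replicate 2 the changes were 0.94 for KMT2D, 0.91 for KMT2B, 1.11 for SETD1A, 1.09 for KMT2C, 0.47 for SETD1B (adjusted p = 0.328) and 0.14 for KMT2A (adjusted p = 0.345). KMT2A turned to -0.074 after the length and GC correction. The calls of KMT2A and SETD1B were also lost with DESeq2 (adjusted p = 0.124 and 0.0798) and without control replicate 2 (adjusted p = 0.0873 and 0.0520). The core subunits differed by -0.15 (DPY30) to 0.20 (ASH2L) between the same 2 libraries.

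Over all genes 22.4% were called in the knockout. Of 6 further subunits, WDR82 of the SETD1 complexes was higher there (0.38 ± 0.08, adjusted p = 0.00233) and the other 5 were not called. That call was lost without control replicate 2 (adjusted p = 0.0598) and without MLL2 knockout replicate 1 (adjusted p = 0.0547). In the knockdown, where 22.2% of all genes were higher and 25.3% lower, WDR82 (0.45 ± 0.08), BOD1L1 (0.32 ± 0.09) and NCOA6 (0.74 ± 0.22) were higher. BOD1 was lower (-0.25 ± 0.09) and CXXC1 and HCFC2 were not called. After the length and GC correction BOD1 (-0.036) and BOD1L1 (0.016) were no longer called. NCOA6 was 0.25 without PRMT1 knockdown replicate 2 (adjusted p = 0.382), and the calls of BOD1L1 and NCOA6 were lost without control replicate 2 (adjusted p = 0.189 and 0.0859). BOD1 lost its call under 9 of 16 other settings, among them library totals (adjusted p = 0.153), no count filter (0.0627) and the compared groups alone (0.0696). The call was also lost without either control library, PRMT1 knockdown replicate 2 or MLL2 knockout replicate 2. Its change was then between -0.27 and -0.175.

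Paralogues of the members moved unevenly. HDGFL2, which shares with PSIP1 the reading of methylated lysine 36, was at 183 and 210.2 CPM in the control libraries, 191 and 210.1 CPM in the knockout libraries and 105 and 105 CPM in the knockdown libraries. Its change of -0.91 ± 0.09 in the knockdown (adjusted p = 5.5e-08) stood beside -0.97 for PSIP1. WDR5B was higher in the knockdown (0.51 ± 0.19, adjusted p = 0.0275, or 0.255 without control replicate 1 and 0.0720 without PRMT1 knockdown replicate 1), HCFC2 changed by -0.10 ± 0.14 where HCFC1 rose, and KDM6B, a relative of KDM6A, by 0.69 ± 0.38. The last 2 were not called. Of 7 genes of the NSL acetyltransferase complex, which also holds WDR5 and HCFC1, 4 were higher in the knockdown (KANSL1, KANSL2, KANSL3 and OGT) and 0 lower, and 0 of 7 were called in the knockout, against 47.4% and 22.4% of all genes called in either direction. The call of KANSL3 was lost without control replicate 1 (adjusted p = 0.129), control replicate 2 (0.0852) or PRMT1 knockdown replicate 2 (0.0827). OGT, at 324 and 317 CPM in control and 407 and 399.5 CPM in the knockdown, changed by 0.33 ± 0.08 (adjusted p = 0.00132).

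Protein-coding genes tested within 250 kb of each member were compared in the knockdown, where 22.2% of all genes were higher and 25.3% lower. All 3 neighbours of PSIP1 were lower in the knockdown: TTC39B (-1.12 ± 0.16, adjusted p = 7.4e-06), CCDC171 (-0.91 ± 0.17, adjusted p = 1.1e-04) and SNAPC3 (-0.31 ± 0.09, adjusted p = 0.0102). SNAPC3 lies on the opposite strand and shares 140 bases with PSIP1, and the counts are stranded. Of 17 neighbours of PAGR1, 7 were lower and 3 higher with a median of -0.41, among them MVP, which shares 185 bases with PAGR1 (-1.16 ± 0.32, adjusted p = 0.00560). Of 8 neighbours of ASH2L, 3 were lower and 4 higher. Of 14 neighbours of MEN1, 5 were lower and 3 higher, and of 5 neighbours of RBBP5, 1 was lower and 2 were higher. WDR5 had 4 neighbours with 1 lower and 0 higher, DPY30 had 4 with 0 lower and 2 higher, and KDM6A and PAXIP1 had none. Of 13 neighbours of HCFC1, which had a median of -0.56, 4 were lower and 3 higher. This comparison was chosen after the members' values were seen.

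Across settings the knockdown changes of HCFC1, KDM6A, RBBP5, PAXIP1, PSIP1 and PAGR1 stayed called in all 16 alternatives. Their ranges were 1.08 to 2.06 for HCFC1, 0.77 to 1.02 for KDM6A, 0.69 to 0.84 for RBBP5, 0.42 to 0.68 for PAXIP1, -1.14 to -0.82 for PSIP1 and -0.95 to -0.74 for PAGR1. HCFC1 had the widest of these ranges.

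**Figure D5:**
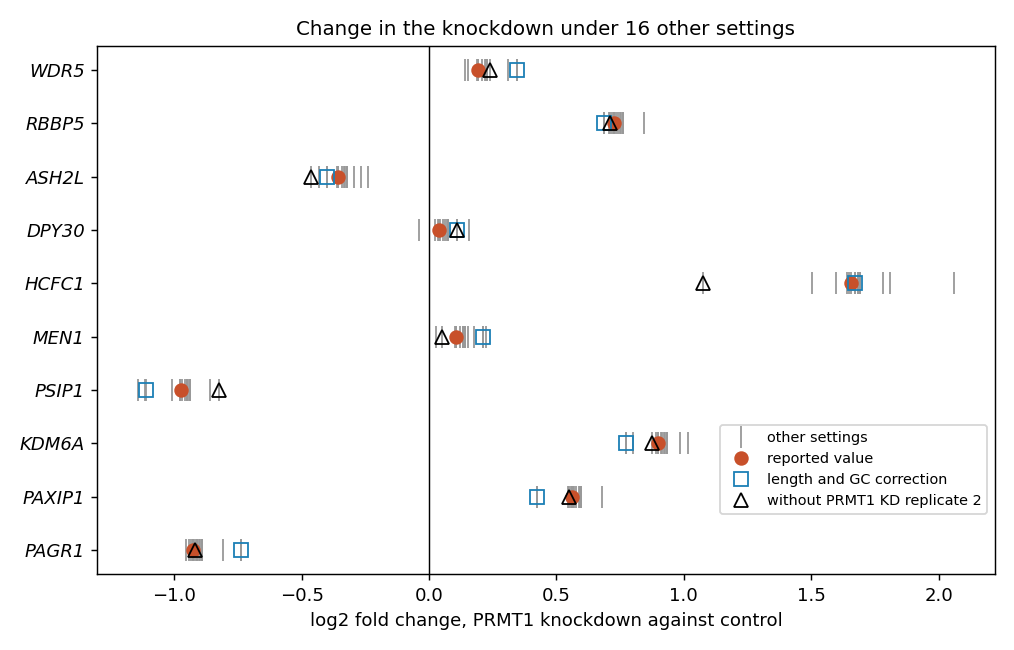
Log2 fold change of each subunit gene in the PRMT1 knockdown against control as reported (red point) and under 16 other settings (grey ticks), with the length and GC correction (blue square) and the fit without PRMT1 knockdown replicate 2 (triangle) marked. Only DPY30 has ticks on both sides of 0, and HCFC1 has the widest range.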

How the data were processed

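RNA of 293T cells was extracted with TRIzol and made into 6 libraries (TruSeq Stranded Total RNA Gold), per the labels' protocols. The deposited values are raw counts per gene, made by the authors with featureCounts (2.0.1 per the file headers, 1.5.0-p1 per the submitters' processing notes) on GENCODE 34 (paired mode, strand setting 2, mapping quality of at least 10), after FastQC 0.11.4, Trim Galore 0.6.10 and STAR 2.7.5a on hg38 per the submitters' processing notes. The exon length per gene comes from the same deposited files. Symbols were found for 60415 genes, and biotype and GC content (GENCODE 29) for 58482.

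Genes passing edgeR's filterByExpr were scaled by TMM and fitted in 1 model of all 6 libraries with a term per group (edgeR 4.0.16, glmQLFit and glmQLFTest, R 4.3.3). SE is the change divided by the root of F, and 95% intervals use the same fit. The scripts were tested on simulated data. Alternatives were DESeq2 1.42.0, other scalings and count filters, a fit of protein-coding genes, the compared groups alone, a spline correction per library for exon length and GC content, the replicate number as a block, and each library left out. The named genes are the 10 members, the other pathway genes that were called or on which a result turns, the targeted genes and genes overlapping a member. Members and lists were chosen with earlier results of these data known.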

Additional observations from a re-analysis of the deposited data

How the results depend on the processing

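With 2 libraries a group, spread is estimated from 3 residual degrees of freedom shared over the groups, and leaving out a library leaves 1 library in its group, which is assumed to vary like the others. Over all genes, 3941 were called in the knockout and 1908 to 5492 with a library left out (1908 to 2255 without any 1 of the 4 control and knockout libraries). Subunit genes higher in the knockout numbered 5 with the length and GC correction (WDR5, PAXIP1 and PAGR1 were added), 6 with the replicate block and that correction (HCFC1 as well), and 0 to 3 with a library left out (0 without MLL2 knockout replicate 1, 1 without control replicate 2). Those lower numbered 1 (PSIP1) with library totals, no count filter, at least 50 counts in 2 libraries, protein-coding genes alone, the compared groups alone, the length and GC correction, the replicate block and the block with the correction, and 0 to 1 with a library left out. In the knockdown against the knockout, 2 to 4 were higher with a library left out (2 without MLL2 knockout replicate 2). Over all genes in the knockout, the length and GC correction called 2160 higher and 2406 lower of 17350 tested. The block with the correction called 2383 higher and 2627 lower. The cause of these shifts was not tested.

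The replicate block called 4512, 8710 and 7529 genes (knockout, knockdown, knockdown against knockout), where the fit without it called 3941, 8338 and 7154. It moved 1 call of a subunit gene, PSIP1 in the knockout. Same-numbered libraries are not stated to share a batch, and their replicate differences correlated over genes at 0.075 (control and knockout), 0.047 (control and knockdown) and 0.205 (knockout and knockdown).

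Sign changes touched uncalled values near 0 and KMT2A. DPY30 in the knockout was -0.074 with the length and GC correction, with or without the block, and ran from -0.040 (without MLL2 knockout replicate 1) to 0.119 with a library left out. In the knockdown it ran from -0.039 (without PRMT1 knockdown replicate 1) to 0.111, and against the knockout from -0.079 to 0.074. WDR5 there ran from -0.027 to 0.068 and MEN1 from -0.095 to 0.063. MEN1 there was 0.008 with DESeq2 and with relative log expression, 0.013 with no count filter, 0.009 with the length and GC correction with or without the block, 0.025 with at least 50 counts in 2 libraries and with protein-coding genes, and 0.104 with library totals. KMT2A in the knockdown was -0.074 with the length and GC correction and -0.084 with the block as well.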
